A study of Mus musculus with 6 samples.

Results

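CD8 T cells recovered from B16-OVA tumors were compared with CD8 T cells of the spleen by single-cell RNA sequencing, within each of 2 genotype labels. The members were chosen by measured values: a barcode was kept if it held a UMI of Cd8a or Cd8b1, had 500 genes and 1000 UMIs or more, and had no more than 20% of its UMIs from mitochondrial genes. It was also selected on low counts of other cells' markers, with the melanocyte genes Pmel, Mlana, Tyrp1 and Dct summing to less than 50 UMIs and the myeloid genes Lyz2, C1qa, C1qb and Csf1r to less than 10. They were 5484 cells of the 12910 barcodes in these 4 libraries and of the 16651 barcodes in all 6 libraries of the series: 863 and 3884 from spleen, and 278 and 459 from tumor. In each pair of values here and below, the library labelled Pdcd1fl/fl comes first and the library labelled Pdcd1 cKO second. Both labels stand for adult C57BL/6 mice older than 8 weeks that carry floxed Pdcd1 alleles, and the Pdcd1 cKO label adds an E8I CD8-Cre transgene, so deletion is limited to cells in which that Cd8a enhancer drives the recombinase. Each spleen library came from 1 mouse without a tumor, at baseline, through a CD8a+ T cell isolation kit. Each tumor library was a pool of 3 mice taken at day 12 after subcutaneous injection, with tissue digested at 37 °C for 45 minutes, dead cells removed and CD8 cells picked on TIL microbeads. Tissue, tumor bearing, digestion, bead choice and the number of mice therefore cannot be told apart, and with 1 library per tissue and label there were no replicates within a label. No test was made, since the cells and the comparison were chosen with these values known.

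Naive CD8 T cells circulate between blood and lymphoid organs under factors such as Klf2, which keeps the egress receptor S1pr1 and the homing receptor Ccr7 expressed. On antigen contact they divide, switch on glycolysis and load cytotoxic granules with granzymes and perforin, and activated cells also carry inhibitory receptors such as PD-1, the product of Pdcd1, and costimulatory receptors of the TNF receptor family. T cells within tumors are known for such effector and inhibitory receptor programs, while the resting spleen holds mostly naive and memory CD8 T cells.

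The kept cells held 1380788 and 7302155 UMIs in spleen and 3736920 and 5184725 UMIs in tumor. A median cell held 1374 and 1686 UMIs in spleen and 11096.5 and 9190.0 UMIs in tumor. Kept tumor cells thus held more UMIs each, and the cause was not tested. With every cell thinned to 1000 UMIs, the median number of genes was 505 and 558 in spleen and 472.5 and 492 in tumor, with lower values in both tumor libraries. In the spleen library labelled Pdcd1fl/fl, the limits on depth decided membership, since 1478 of its 6929 barcodes passed genes, UMIs and mitochondrial share together and the barcodes next to the limits had 500 and 499 genes and 1000 and 999 UMIs. In the tumor libraries the melanoma-marker limit fell in a gap, with 37 and 17 UMIs in the last barcodes inside it and 133 and 116 UMIs in the first outside. The myeloid-marker limit lay between 3 and 71 UMIs in the tumor library labelled Pdcd1fl/fl, between 9 and 14 UMIs in the one labelled Pdcd1 cKO, and between 2 and 11 UMIs in the spleen library labelled Pdcd1 cKO. The mitochondrial limit lay between 19.0% and 25.5% in the spleen library labelled Pdcd1 cKO, and no barcode of the other 3 libraries failed by it alone. Barcodes without a CD8 UMI that failed by this alone numbered 615 and 1043 in spleen and 18 and 15 in tumor. The spleen libraries shared 2 barcode sequences, neither of them kept in both, and no other pair of the 6 libraries shared one. No doublets were called. Of the kept spleen cells 82 and 182 held no UMI of a Cd3 gene, and of the kept tumor cells 0 and 0. Barcodes of the tumor libraries past the melanoma-marker limit (197, median 32880 UMIs) and past the myeloid-marker limit (50, median 7675 UMIs) served for comparison, and as cells of other types they carry their own expression. In the tumor library labelled Pdcd1 cKO 30 barcodes lay past the myeloid-marker limit, and 29 stand in the myeloid-marker class. Scaled by their markers, the melanoma-marker profiles made up 1.60% and 0.994% of the UMIs of kept tumor cells, and the myeloid-marker profiles 0.143% and 0.360%.

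The Pdcd1 transcript was not lower in the spleen library labelled Pdcd1 cKO. Levels are in CPM, taken over all UMIs of a library's kept cells. Pdcd1 (ENSMUSG00000026285, chromosome 1, 93966027 to 93980312, GRCm39) was read with 1 and 89 UMIs in spleen and 699 and 793 UMIs in tumor, or 0.724 and 12.2 CPM in spleen and 187 and 153 CPM in tumor. It was lower in the spleen library labelled Pdcd1fl/fl than in the one labelled Pdcd1 cKO, and differed by less than 2-fold between the tumor libraries. In thymus Pdcd1 stood at 2.46 and 9.16 CPM. In spleen Nkg7 stood at 1283 and 1837 CPM, Gzmb at 10.9 and 29.9 CPM and Prf1 at 10.9 and 37.4 CPM. By flow cytometry the paper reports more of these proteins in effector-like splenic CD8 T cells of Pdcd1 cKO mice. It also reports reduced binding of an anti-PD-1 antibody to Pdcd1 cKO cells. Whether floxed exons were present or labels were exchanged was not tested, and the counts do not show it, so each library is named by its label. Cd8a stood at 322 and 311 CPM in spleen and 323 and 329 CPM in tumor, and Cd8b1 at 865 and 1051 CPM in spleen and 445 and 591 CPM in tumor. Since a UMI of either was required of every cell, these levels are set in part by the selection. Cd4, which was not selected on, stood at 0.724 and 2.88 CPM in spleen and 1.87 and 1.35 CPM in tumor. Of 10 genes that mark T cells, 0 were higher and 1, the kinase Lck, was lower in tumor in both pairs. Of all genes tested below, 8.67% were higher and 36.1% lower by the same rule. The list medians were 0.07 and 0.11. Of 4 sex-linked genes (3 with at least 100 UMIs) 0 were higher and 2, Uty and Eif2s3y, were lower, beside the same 8.67% and 36.1%. Their medians were -1.61 and -1.61. Xist stood below 1 CPM and the Y-linked Ddx3y between 318 and 458 CPM in all 4 libraries.

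The tumor libraries also stood apart in properties of the reads. Median log2 CPM ratios of tumor over spleen fell with the length of a gene's introns, from 0.25 and 0.02 in the decile of genes with the shortest introns to -1.55 and -1.65 in decile 9, and stood at -1.15 and -0.80 in the last. The same fall appeared for tumor over thymus, from -0.22 and 0.12 to -1.82 and -1.70, while thymus over spleen ranged from -0.11 to 0.55 and from -0.16 to 0.07 over the deciles. Beyond Pdcd1, the thymus libraries are not otherwise used here. Against spleen the ones labelled Pdcd1fl/fl showed a smaller fall, from 0.55 in decile 3 to -0.11 in the last. Malat1, a nuclear RNA, stood at 1431 and 3129 CPM in spleen and 38.8 and 42.2 CPM in tumor, with no overlap between the tissues. Mitochondrial protein genes held 3.78% and 4.32% of UMIs in spleen and 1.99% and 1.76% in tumor, and cytosolic ribosomal protein genes held 35.7% and 29.2% in spleen and 40.9% and 36.1% in tumor. Of 1365 genes that overlap another gene or share part of their transcript sequence with one, 27 were at least 16-fold higher in tumor under both labels. Of 7457 other genes 35 were. Among the former, Gm50057, Naa12, which overlaps Txnl4a, and Borcs8, which overlaps Mef2b, had 0 UMIs in both spleen libraries. The 2 tumor files also list the genes in another order than the other 4, so genes were joined by Ensembl identifier. The part of these properties in the results below was not tested.

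**Figure D1:**
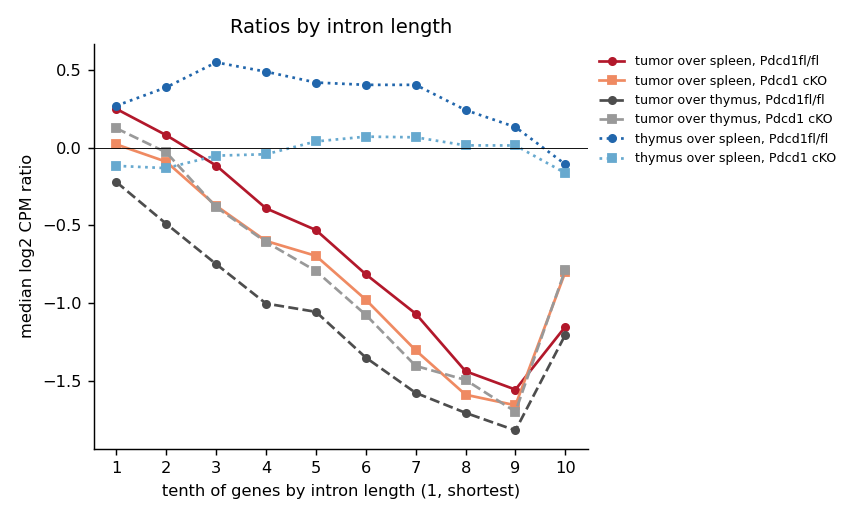
Median log2 CPM ratio (vertical axis) of genes with at least 100 UMIs, in deciles by intron length (horizontal axis), for 3 pairs of tissues and both labels. Tumor over spleen fell from 0.25 and 0.02 in the first decile to -1.55 and -1.65 in decile 9, and thymus over spleen stayed between -0.16 and 0.55.

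Over the 4 libraries 8822 genes had at least 100 UMIs. A gene was counted as higher or lower in tumor when its ratio was at least 2-fold in the same direction under both labels and both 95% exact conditional binomial intervals excluded 0 on the log2 scale. By this rule 765 genes were higher (8.67% of those tested) and 3188 were lower (36.1%), and because the ratio itself defines the comparison these shares are a description. Intervals cover counting error only. Median ratios of all tested genes were -0.67 and -0.79, and 86.3% of the genes had the same sign under both labels, with a Pearson correlation of 0.852 across genes, which are not independent replicates. Scaling by median of ratios raised every log2 ratio by 0.72 and 0.66, and higher genes then made up 47.1% of all genes past the fold, against 19.4% under CPM. Centring each ratio on the median of genes in the same decile of intron length, a step chosen after seeing the data, put that share at 48.0%. Centring sets the medians under both labels to 0, and median of ratios brings them near 0, at 0.06 and -0.13. A near balance follows from either step and is not read as a result. Of the 765 higher genes 735 stayed higher after centring by intron length, and of the 3188 lower genes 1633 stayed lower. Within a tissue, 856 of the 8822 genes differed 2-fold or more between the tumor libraries and 882 between the spleen libraries. Of the higher genes 201 (26.3%) share transcript sequence with another gene, against 349 of the lower genes (10.9%) and 15.5% of all tested genes. In the left-out tumor barcodes 422 of the 765 higher genes had a higher CPM than in the kept tumor cells, in at least 1 of the 2 classes. Subtracting the profiles of these barcodes, scaled by their markers, left 733 higher genes, 730 of them among the 765, and limits of 5 melanoma-marker and 2 myeloid-marker UMIs left 660, of which 644 were among the 765. The counts for gene lists below are of members with at least 20 UMIs, of which only those with at least 100 could be counted as higher or lower.

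**Figure D2:**
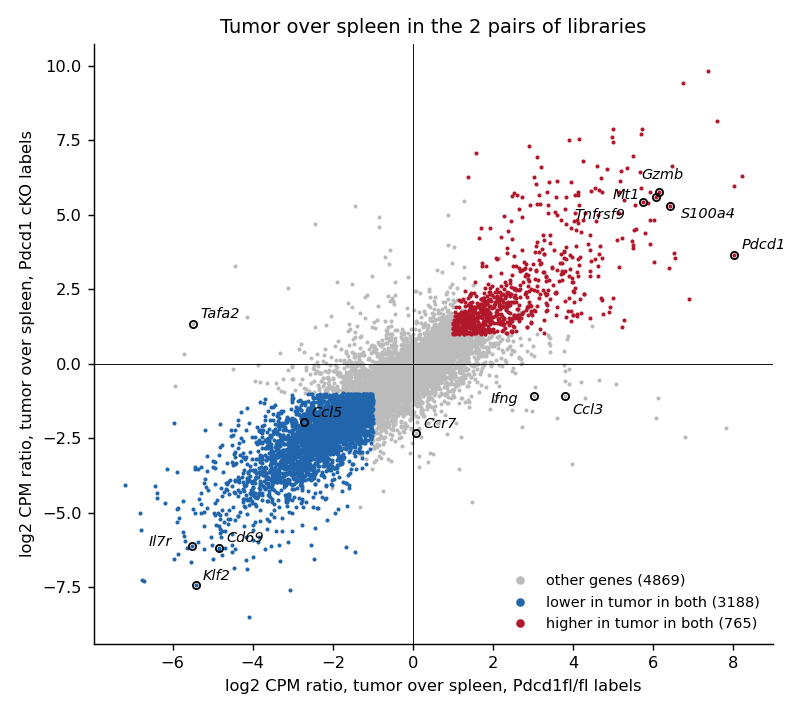
Log2 CPM ratio of tumor over spleen for each of 8822 genes, in the libraries labelled Pdcd1fl/fl (horizontal axis) and Pdcd1 cKO (vertical axis), with genes past 2-fold in both colored. The 765 higher and 3188 lower genes lie in the quadrants of equal sign, and Ifng, Ccl3 and Tafa2 lie in the quadrants of opposite sign.

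The leading genes were ranked by the label with the smaller change, after leaving out genes with a higher CPM in the left-out barcodes than in the kept tumor cells. Granzymes held 4 of the first 20 places among higher genes. Gzmb (chromosome 14, 56496295 to 56499717), the main granule protease of effector cells, stood at 10.9 and 29.9 CPM in spleen and 771 and 1617 CPM in tumor. Both tumor libraries lay above both spleen libraries, with log2 ratios of 6.15 (5.43 to 6.99) and 5.76 (5.57 to 5.96). Gzmc, its neighbor at 56468857 to 56479211, had 1 and 7 UMIs in spleen and 695 and 307 UMIs in tumor. Gzmf had 0 and 0 UMIs in spleen and 153 and 236 UMIs in tumor. With a floor of 3 counts in each spleen library it was 18.8-fold and 110.8-fold higher. Its intervals began at log2 ratios of 3.92 and 6.48. At its transcript end 22.8% of the 31-base words occur in other genes. Gzme had 0 and 0 UMIs in spleen and 83 and 114 UMIs in tumor, with 48.3% of such words shared. Gzmc and Gzmf were carried by few cells, since the decile of tumor cells with the most held 90.2% and 93.8% of Gzmc UMIs and 95.4% and 89.0% of Gzmf UMIs. Beside the granzymes stood Nrgn, a calmodulin-binding protein, at 0.724 and 1.37 CPM in spleen and 215 and 108 CPM in tumor. Tnfrsf9, the costimulatory receptor 4-1BB, stood at 12.3 and 14.9 CPM in spleen and 657 and 635 CPM in tumor. Both genes were high in both tumor libraries without overlap with spleen. Tk1, the thymidine kinase of dividing cells, stood at 1.45 and 2.60 CPM in spleen and 67.7 and 105 CPM in tumor. The other leading genes were the metallothionein Mt3, the transporter gene Slc16a11, Gldc, Tff1, S100a4, the histone genes H3c3, H2ac4 and H2ac23, and Nup62, Smim36, Borcs8, Naa12 and Gm50057, of which Mt3, Slc16a11 and Tff1 share no marked transcript sequence with another gene.

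The leave-out step removed 2808 of the 3188 lower genes as well, so the leading lower genes are those that were not higher in the left-out barcodes. Trim58 stood first among those with a UMI in every library, at 84.7 and 90.8 CPM in spleen and 0.803 and 0.579 CPM in tumor. Dtx1, a Notch pathway ubiquitin ligase, had 46 and 358 UMIs in spleen and 0 and 4 UMIs in tumor. Cd69, which marks recent activation and holds S1pr1 off the surface, stood at 474 and 992 CPM in spleen and 16.6 and 13.7 CPM in tumor. Each of these 3 genes was high in both spleen libraries and near 0 or low in both tumor libraries. Gzmm, unlike the other leading granzymes, was lower in tumor, at 123 and 158 CPM in spleen and 5.62 and 1.35 CPM in tumor. S1pr1 and the transcription factor gene Zeb1 also stood among the first 20 lower genes, with log2 ratios of -4.62 and -5.23 for S1pr1 and -4.76 and -4.90 for Zeb1. The antibody genes Ighg2b and Jchain were in the list too, and Ighg2b had 19 and 1512 UMIs in spleen and 0 and 0 UMIs in tumor. The remaining lower genes were Gm10801, Gm10800, Ifngas1, Vipr1, Cplane1, Klhl6, Sidt1, Gm2682, Nfkbid, Yeats2, Zfp831 and A930015D03Rik. Of these, Yeats2 and A930015D03Rik share transcript sequence with other genes. Gm10801 and Gm10800 had no position in the annotation and were not assessed for shared sequence. The first 5 higher genes that were left out for a higher CPM in melanoma-marker or myeloid-marker barcodes were Gm10358, Spp1, Cck, Pmel and G630055G22Rik.

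Of the 19 genes of naive cells and circulation, 18 were lower and 0 higher in tumor, beside 36.1% and 8.67% of all tested genes. The median log2 ratios of the 19 were -3.08 and -4.30, beside -0.63 and -0.67 for all 13707 genes with at least 20 UMIs. The medians were -2.36 and -3.64 under median of ratios and -2.43 and -3.04 after centring by intron length. Klf2, the factor that maintains quiescence and egress, stood at 1010.3 and 997 CPM in spleen and 23.5 and 5.79 CPM in tumor. Its egress target S1pr1 stood at 177 and 123 CPM in spleen and 7.23 and 3.28 CPM in tumor. Both were high in spleen and low in tumor, with the lowest values in the tumor library labelled Pdcd1 cKO. Il7r, the receptor chain for the survival cytokine IL-7, stood at 172 and 187 CPM in spleen and 3.75 and 2.70 CPM in tumor. Tcf7, a factor of naive and stem-like cells, stood at 141 and 155 CPM in spleen and 18.2 and 9.45 CPM in tumor, and its relative Lef1 at 348 and 255 CPM in spleen and 8.83 and 9.84 CPM in tumor. None of these 3 overlapped between the tissues. Ccr7, a lymph node homing receptor, was the list's exception at 337 and 322 CPM in spleen and 356 and 63.6 CPM in tumor. It was as high in the tumor library labelled Pdcd1fl/fl as in spleen and lower in the one labelled Pdcd1 cKO. Klf2 was seen at 1000 UMIs in 57.0% (53.6 to 60.3) and 59.0% (57.4 to 60.6) of cells in spleen and 3.24% (1.49 to 6.06) and 0.218% (0.00552 to 1.21) in tumor. Without thinning the Klf2 shares were 70.3%, 75.7%, 21.9% and 5.23%, and with thinning 2.03% of melanoma-marker and 2.00% of myeloid-marker barcodes held a UMI. The list of 8 GIMAP genes, small GTPases of resting lymphocytes, held 5 lower and 0 higher, beside 36.1% and 8.67% of all tested genes. The medians were -1.62 and -1.71, with Gimap7 highest and Gimap6 lowest by the smaller change. Under median of ratios 4 were lower, with medians of -0.90 and -1.04. Gimap6 stood at 613 and 580.2 CPM in spleen and 43.4 and 35.9 CPM in tumor.

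**Figure D3:**
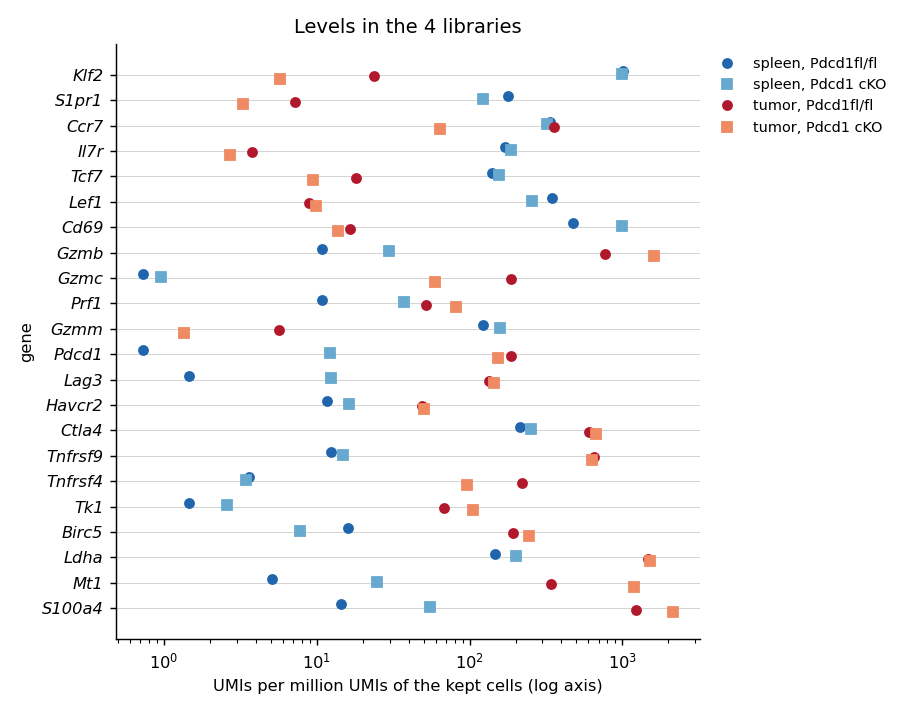
Level of 22 genes in CPM (log axis) in the kept cells of the 4 libraries, 1 point per library. Klf2, S1pr1, Il7r and Cd69 are high in spleen, and Gzmb, Tnfrsf9, Mt1 and S100a4 are high in tumor, in both libraries of the tissue.

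Of 23 genes of cytotoxic granules (20 with at least 100 UMIs) 7 were higher and 2 lower, beside 8.67% and 36.1% of all tested genes, with medians of 0.64 and 0.97. Under median of ratios 11 were higher, with medians of 1.36 and 1.64. With cells thinned 3 were higher, of 19 genes, with medians of 0.79 and 0.33. Prf1, which forms the pore for granzyme entry, stood at 10.9 and 37.4 CPM in spleen and 51.6 and 82.0 CPM in tumor, higher in both tumor libraries. Gzmb was seen at 1000 UMIs in 0.811% (0.327 to 1.66) and 2.57% (2.10 to 3.12) of cells in spleen and 32.7% (27.2 to 38.6) and 55.8% (51.1 to 60.4) in tumor. Without thinning the Gzmb shares were 1.27%, 4.61%, 62.9% and 90.6%, and with thinning 2.03% of melanoma-marker and 4.00% of myeloid-marker barcodes held a UMI. Its share in tumor cells lay above both left-out classes and above both spleen libraries. Nkg7, a granule membrane protein, stood at 1283 and 1837 CPM in spleen and 1583 and 2652 CPM in tumor, and its ratios of 0.30 and 0.53 did not reach 2-fold, while under median of ratios they were 1.02 and 1.19. Nkg7 was seen at 1000 UMIs in 63.8% (60.5 to 67.1) and 76.1% (74.7 to 77.4) of cells in spleen and 74.8% (69.3 to 79.8) and 90.8% (87.8 to 93.3) in tumor. Without thinning the Nkg7 shares were 74.6%, 87.6%, 96.8% and 99.8%, and with thinning 5.58% of melanoma-marker and 22.0% of myeloid-marker barcodes held a UMI. Gzma had 18 and 393 UMIs in spleen and 87 and 585 UMIs in tumor, and Gzmk stood at 11.6 and 52.3 CPM in spleen and 20.9 and 82.0 CPM in tumor, and for both the tumor and spleen libraries overlapped. The granzyme inhibitors Serpinb6b and Serpinb9 were higher, with log2 ratios of 4.41 and 2.96 for Serpinb6b and 3.90 and 2.94 for Serpinb9. Fasl, the death ligand, was lower at 28.2 and 51.9 CPM in spleen and 6.15 and 15.0 CPM in tumor.

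Among 17 inhibitory receptor genes (15 with at least 100 UMIs) 4 were higher and 4 lower, beside 8.67% and 36.1% of all tested genes, with medians of 0.89 and -0.30, and the second was 0.36 under median of ratios and 1.35 after centring by intron length. The 4 higher genes were Pdcd1, Lag3, Havcr2 and Ctla4. Pdcd1 had log2 ratios of 8.01 (5.53 to 13.32) and 3.65 (3.33 to 3.98), with the difference in spleen level named above. Lag3, a receptor for MHC class II, stood at 1.45 and 12.5 CPM in spleen and 135 and 144 CPM in tumor. Ctla4, which competes with Cd28, stood at 213 and 253 CPM in spleen and 607 and 677 CPM in tumor. Both were higher in both tumor libraries, with a narrower gap for Ctla4. Havcr2, which encodes TIM-3, stood at 11.6 and 16.2 CPM in spleen and 49.0 and 50.3 CPM in tumor, and at 90.6 CPM in the melanoma-marker barcodes and 198 CPM in the myeloid-marker barcodes. After thinning it was seen in 1.16% (0.557 to 2.12) and 1.75% (1.36 to 2.21) of cells in spleen and 3.24% (1.49 to 6.06) and 3.49% (2.01 to 5.60) in tumor. Without thinning the Havcr2 shares were 1.85%, 2.96%, 38.5% and 38.6%, and with thinning 14.2% of melanoma-marker and 14.0% of myeloid-marker barcodes held a UMI. Its share in tumor cells lay under both left-out classes, so that the share alone is not read as expression, and with the profiles of those classes subtracted the ratios were 2.06 and 1.61, against 2.08 and 1.64. Pdcd1 was seen after thinning in 0 of 863 (upper limit 0.427%) and 43 of 3884 spleen cells, and in 45 of 278 and 62 of 459 tumor cells. Without thinning the Pdcd1 counts of cells were 1, 76, 194 and 296, and with thinning 0 of 197 melanoma-marker and 0 of 50 myeloid-marker barcodes held a UMI. Tigit stood at 3.62 and 6.98 CPM in spleen and 18.5 and 12.0 CPM in tumor, and did not pass 2-fold under both labels. Btla, an inhibitory receptor of resting lymphocytes, had the lowest ratios of the list, -3.64 and -5.55.

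The 13 costimulatory genes (12 with at least 100 UMIs) held 3 higher and 3 lower members, beside 8.67% and 36.1% of all tested genes, with medians of 0.53 and 0.01. All 3 higher members belong to the TNF receptor family. Tnfrsf4, which encodes OX40, stood at 3.62 and 3.42 CPM in spleen and 219 and 96.8 CPM in tumor. Tnfrsf18, which encodes GITR, had 102 and 620 UMIs in spleen and 957 and 937 UMIs in tumor, with ratios of 1.79 and 1.09. Tnfrsf9 was seen after thinning in 0.811% (0.327 to 1.66) and 1.47% (1.11 to 1.90) of cells in spleen and 43.2% (37.3 to 49.2) and 43.8% (39.2 to 48.5) in tumor. Without thinning the Tnfrsf9 shares were 1.51%, 2.34%, 90.6% and 97.2%, and with thinning 2.03% of melanoma-marker and 4.00% of myeloid-marker barcodes held a UMI. Tnfrsf4 and Tnfrsf9 were higher in both tumor libraries than in both spleen libraries. Cd28 itself was lower, at 128 and 240.2 CPM in spleen and 24.9 and 28.4 CPM in tumor. Tnfsf8, the ligand of CD30, had the lowest ratios of the list at -3.34 and -6.09.

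Of 34 transcription factors of fate and activation (30 with at least 100 UMIs) 1 was higher and 13 lower, beside 8.67% and 36.1% of all tested genes, with medians of -0.56 and -1.22, of which the first was 0.16 under median of ratios and 0.42 after centring by intron length. The higher gene was Irf8, at 7.24 and 5.89 CPM in spleen and 93.4 and 164 CPM in tumor, and at 6.90 CPM in the melanoma-marker barcodes and 208 CPM in the myeloid-marker barcodes, so that it stood higher still in the latter. Egr1 was lowest of the list by the smaller change, with ratios of -3.52 and -3.97. Tox, a factor of chronically stimulated cells, stood at 52.1 and 93.1 CPM in spleen and 39.3 and 45.9 CPM in tumor, below 2-fold under the Pdcd1fl/fl label. Eomes, a T-box factor of memory cells, was lower at 57.9 and 97.1 CPM in spleen and 7.76 and 5.40 CPM in tumor, and Bach2, which restrains effector genes, at 230.3 and 194 CPM in spleen and 11.5 and 9.84 CPM in tumor. The 21 immediate early and stress genes held 15 lower and 0 higher members, beside 36.1% and 8.67% of all tested genes. The medians of these 21 genes were -2.02 and -3.55, with Hspe1 highest and Jun lowest by the smaller change. Their medians stayed negative under median of ratios (-1.30 and -2.89) and after centring by intron length (-1.66 and -3.27). Jun, a subunit of AP-1, stood at 235 and 709 CPM in spleen and 20.1 and 10.2 CPM in tumor. Nr4a1, a member of the factor list that follows T cell receptor signaling, stood at 135 and 454 CPM in spleen and 14.2 and 12.5 CPM in tumor, with 242 CPM in the melanoma-marker barcodes and 64.8 CPM in the myeloid-marker barcodes. Both genes were lower in both tumor libraries, and both were highest in the spleen library labelled Pdcd1 cKO. The heat shock gene Hspa1a had 33 and 4423 UMIs in spleen and 28 and 44 UMIs in tumor, so that 1 spleen library held most of its UMIs. Among 26 genes of T cell receptor signaling 9 were lower, near the 36.1% of all tested genes, and 0 higher, with medians of -0.93 and -1.05, Dusp4 highest by the smaller change. Median of ratios put 5 of the signaling genes higher and 5 lower.

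Chemokine and cytokine genes split, with 2 higher and 3 lower of 16 (12 with at least 100 UMIs), beside 8.67% and 36.1% of all tested genes, and medians of 1.55 and -0.30, of which the second was 0.37 under median of ratios. Ccl5, a chemokine stored by memory cells, stood at 3901 and 8094 CPM in spleen and 596 and 2086 CPM in tumor, lower in both tumor libraries. The higher members were Spp1 and Ccl9, and both were higher still in at least 1 of the left-out classes, with Spp1 at 101 CPM in the melanoma-marker barcodes and 227 CPM in the myeloid-marker barcodes. Xcl1, which attracts cross-presenting dendritic cells, stood at 106 and 168 CPM in spleen and 619 and 135 CPM in tumor. It was highest in the tumor library labelled Pdcd1fl/fl, and the other tumor library lay within the spleen range. Of 22 chemokine receptors and adhesion genes (20 with at least 100 UMIs) 2 were higher and 8 lower, near the 8.67% and 36.1% of all tested genes, with medians of -0.50 and -1.20, and the first was 0.22 under median of ratios and 0.45 after centring. Cxcr6, a receptor of tissue T cells, was higher at 9.41 and 32.6 CPM in spleen and 92.9 and 167 CPM in tumor, and Cx3cr1 was the other higher member, with a higher CPM in both left-out classes than in the kept tumor cells. Of 19 cytokine receptor genes 2 were higher, Il2ra and Il12rb1, and 8 were lower, beside 8.67% and 36.1% of all tested genes, with medians of -0.76 and -1.76, and the first was 0.06 after centring. Il12rb1 had a higher CPM in the myeloid-marker barcodes than in the kept tumor cells. Il2ra, the inducible IL-2 receptor chain, stood at 1.45 and 1.78 CPM in spleen and 13.1 and 9.07 CPM in tumor.

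Of 36 DNA replication genes 22 were higher and 1, Cdc45, was lower, beside 8.67% and 36.1% of all tested genes. Of these 36, 35 had at least 100 UMIs. The medians were 1.85 and 1.59, with Tk1 highest and Cdc45 lowest by the smaller change. With cells thinned only 5428 of all genes kept the 100 UMIs needed, against 8822. By that count 5 of 32 members were higher, with medians of 1.88 and 1.46. Of the 22 higher members 5 had a higher CPM in a left-out class. Of 43 mitosis and spindle genes 20 were higher and 1, Smc4, was lower, beside 8.67% and 36.1% of all tested genes. Of these 43, 29 had at least 100 UMIs. The medians were 1.73 and 1.91, with Aurkb highest and Smc4 lowest by the smaller change. With cells thinned 7 of 28 members were higher, and without members that share transcript sequence 13 of 32 were. Birc5, a subunit of the chromosomal passenger complex, stood at 15.9 and 7.81 CPM in spleen and 191 and 246 CPM in tumor. Spc24, a kinetochore protein, stood at 4.35 and 13.1 CPM in spleen and 115 and 154 CPM in tumor, and the tubulin gene Tubb4b at 72.4 and 112 CPM in spleen and 368 and 425 CPM in tumor. All 3 were higher in both tumor libraries than in both spleen libraries. Cells in which the lists held at least 3 of 1000 thinned UMIs made up 18.7% and 28.7% of spleen and 65.1% and 77.1% of tumor cells. Without thinning, cells in which the lists held at least 0.25% of UMIs numbered 133 of 863 and 1008 of 3884 in spleen and 189 of 278 and 378 of 459 in tumor. Leaving such cells out kept 730 and 2876 spleen and 89 and 81 tumor cells, in which 277 genes were higher, and 243 of these were among the 765. Without thinning Mki67 was seen in 3 and 29 spleen cells and Top2a in 14 and 92, so most of the 133 and 1008 held neither and are not called dividing. In tumor Mki67 was seen in 60 and 58 cells and Top2a in 68 and 91. Tk1 was seen in more, in 122 and 263 tumor cells, and Pclaf in 189 and 350. In spleen Tk1 was seen in 2 and 16 cells and Pclaf in 11 and 34. The share of tumor cells thus depends on the gene, and how many of the 189 and 378 list-rich cells were dividing was not tested. The replication and mitosis lists are lowered by this step itself, so their medians in the remaining cells are not read as a result.

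Of 20 glycolysis genes (19 with at least 100 UMIs) 9 were higher and 3 lower, beside 8.67% and 36.1% of all tested genes, with medians of 1.34 and 0.94, Slc16a3 highest and Pdk1 lowest by the smaller change. Without the 6 members that share transcript sequence, an alternative chosen after seeing the data, 5 of 14 were higher and the medians turned negative, at -0.08 and -0.76. Ldha, which makes lactate, stood at 148 and 201 CPM in spleen and 1477 and 1518 CPM in tumor, and the lactate exporter gene Slc16a3 had 0 and 4 UMIs in spleen and 195 and 283 UMIs in tumor. All 9 higher genes had a higher CPM in at least 1 class of left-out barcodes than in the kept tumor cells, with Ldha at 1806 CPM in the melanoma-marker barcodes and 1861 CPM in the myeloid-marker barcodes. After thinning Ldha was seen in 12.4% (10.3 to 14.8) and 16.6% (15.5 to 17.8) of cells in spleen and 67.6% (61.8 to 73.1) and 71.9% (67.5 to 76.0) in tumor. Without thinning the Ldha shares were 17.1%, 28.4%, 99.3% and 99.8%, and with thinning 72.6% of melanoma-marker and 70.0% of myeloid-marker barcodes held a UMI. Its share in tumor cells was close to that in both left-out classes. With the scaled profiles of those classes subtracted 9 glycolysis genes were higher, with medians of 1.26 and 0.89. Of 15 hypoxia genes (12 with at least 100 UMIs) 3 were higher and 2 lower, beside 8.67% and 36.1% of all tested genes, with medians of 0.37 and 0.02, Ndrg1 highest and Pdk1 lowest by the smaller change. The 13 mitochondrial genes (12 with at least 100 UMIs) held 0 higher and 1 lower, beside 8.67% and 36.1% of all tested genes. Their medians were -0.73 and -1.08. Nuclear genes of oxidative phosphorylation held 7 higher and 0 lower of 32, beside 8.67% and 36.1% of all tested genes. The nuclear medians were 0.78 and 0.89, with Ndufb8 highest and Ndufs1 lowest by the smaller change. All 7 of those higher genes, and all 3 higher hypoxia genes, had a higher CPM in a left-out class too, and median of ratios put 24 of the 32 higher. Of 83 cytosolic ribosomal protein genes (82 with at least 100 UMIs) 6 were higher and 0 lower, beside 8.67% and 36.1% of all tested genes, with medians of 0.34 and 0.43, Rps27l highest and Rpl21 lowest by the smaller change, and under median of ratios 42 were higher. Of 9 amino acid transporter genes (7 with at least 100 UMIs) 3 were lower and 0 higher, beside 8.67% and 36.1% of all tested genes, with medians of -0.90 and -1.11, Slc7a5 highest and Slc38a2 lowest by the smaller change. Under median of ratios 1 of them was lower and the medians were -0.18 and -0.45. Of 17 genes of the unfolded protein response 2 were higher and 3 lower, beside 8.67% and 36.1% of all tested genes, Sdf2l1 highest and Ddit3 lowest by the smaller change, with medians of 0.05 and -0.46, and the second was 0.20 under median of ratios and 0.14 after centring. Both higher members had a higher CPM in a left-out class. Of 12 Bcl2 family genes 4 were higher and 5 lower, beside 8.67% and 36.1% of all tested genes, Bcl2a1d highest and Bcl2 lowest by the smaller change, with medians of 0.48 and -0.62, and the second was 0.04 under median of ratios and 0.52 after centring. The Bcl2 family medians were -1.85 and -2.02 with at least 500 UMIs, over 9 genes, and -0.76 and -1.41 without the 2 members that share transcript sequence, and 3 of the 4 higher genes had a higher CPM in a left-out class. Bcl2, which blocks cell death, stood at 135 and 207 CPM in spleen and 8.56 and 2.31 CPM in tumor.

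All 3 metallothionein genes, which bind zinc and copper, were higher, beside 8.67% of all tested genes, with medians of 5.69 and 5.88. Mt1 stood at 5.07 and 24.7 CPM in spleen and 343 and 1190.2 CPM in tumor, and Mt2 at 2.90 and 9.59 CPM in spleen and 149 and 565 CPM in tumor. Mt1 stood at 2870.3 CPM in the melanoma-marker barcodes and 1026 CPM in the myeloid-marker barcodes, and was seen after thinning in 0.579% (0.188 to 1.35) and 1.88% (1.48 to 2.36) of cells in spleen and 24.5% (19.5 to 30.0) and 56.4% (51.8 to 61.0) in tumor. Without thinning the Mt1 shares were 0.579%, 3.37%, 80.9% and 96.5%, and with thinning 88.8% of melanoma-marker and 54.0% of myeloid-marker barcodes held a UMI. Its share in tumor cells was below that in the melanoma-marker barcodes, and in the tumor library labelled Pdcd1fl/fl below that in the myeloid-marker barcodes too, and with the scaled profiles subtracted the metallothionein medians were 5.55 and 5.87. Mt3, in contrast, stood at 6.77 CPM in the melanoma-marker barcodes and 22.9 CPM in the myeloid-marker barcodes and at 0 and 0.411 CPM in spleen and 32.1 and 74.4 CPM in tumor. The list of 12 S100, galectin and annexin genes held 5 higher and 0 lower members, beside 8.67% and 36.1% of all tested genes. The medians were 1.55 and 1.09, with S100a4 highest and Crip1 lowest by the smaller change. Of the 5 higher members 3 had a higher CPM in a left-out class. S100a4, a calcium-binding protein of migrating cells, stood at 14.5 and 54.9 CPM in spleen and 1231 and 2152 CPM in tumor, and was seen after thinning in 1.27% (0.638 to 2.27) and 4.48% (3.85 to 5.18) of cells in spleen and 52.2% (46.1 to 58.2) and 77.8% (73.7 to 81.5) in tumor. Without thinning the S100a4 shares were 1.74%, 6.95%, 79.5% and 97.2%, and with thinning 5.58% of melanoma-marker and 48.0% of myeloid-marker barcodes held a UMI. Lgals1, which encodes galectin-1, stood at 482 and 511 CPM in spleen and 4284 and 6791 CPM in tumor. Both genes were higher in both tumor libraries than in both spleen libraries, while 57.9% of the words at the S100a4 transcript end are shared with other genes. Of 6 Ly6 genes (4 with at least 100 UMIs) 1, Ly6a, was higher and 1, Ly6c2, was lower, beside 8.67% and 36.1% of all tested genes, with medians of 0.29 and -0.50, and the second was 0.17 under median of ratios. Ly6a had a higher CPM in the myeloid-marker barcodes than in the kept tumor cells. Of 29 interferon-stimulated genes (23 with at least 100 UMIs) 4 were higher and 9 lower, beside 8.67% and 36.1% of all tested genes, with medians of -0.78 and -0.95, Igtp highest and Ifi213 lowest by the smaller change. Both medians were positive with at least 500 UMIs, at 0.73 and 0.45, over 9 genes, and all 4 higher genes had a higher CPM in a left-out class. Of 14 killer lectin receptor genes (10 with at least 100 UMIs) 3, Klrc1, Klrc2 and Klrk1, were higher and 2 lower, beside 8.67% and 36.1% of all tested genes, Klrc2 highest and Klra7 lowest by the smaller change, with medians of -0.46 and -1.21, and the first was 0.26 under median of ratios. Without the 9 members that share transcript sequence the killer lectin receptor medians were 0.37 and 0.12. The actin regulator Coro1a stood at 821 and 1068 CPM in spleen and 1713 and 2196 CPM in tumor, just past 2-fold under both labels.

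**Figure D4:**
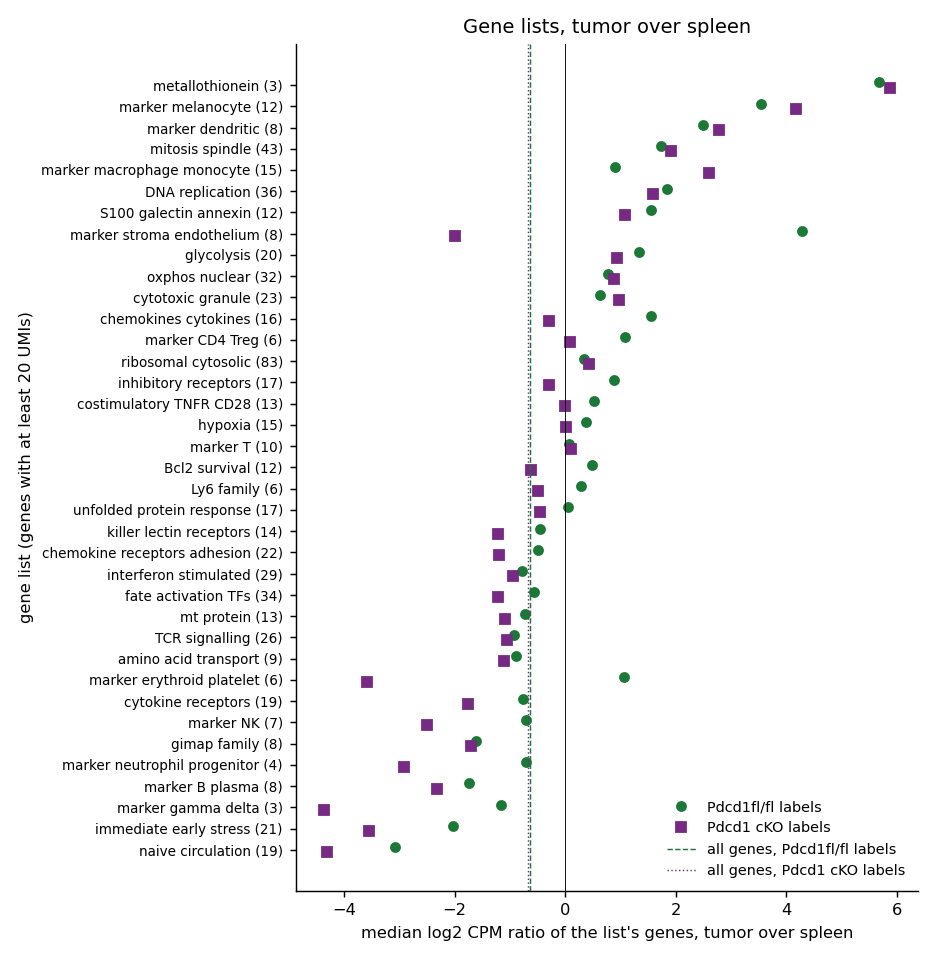
Median log2 CPM ratio of tumor over spleen (horizontal axis) for each gene list (vertical axis, number of genes with at least 20 UMIs in brackets), with circles for the Pdcd1fl/fl and squares for the Pdcd1 cKO labels and lines at the medians of all genes. Metallothionein genes lie highest, at 5.69 and 5.88, and genes of naive cells and circulation lie lowest under the Pdcd1fl/fl label, at -3.08.

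Promoter windows from RefSeq (GRCm38.p6, 250 bases before to 50 after the start) are shown for members of groups in which several genes were higher. Of 10 granzymes 4 were higher and 1, Gzmm, was lower, beside 8.67% and 36.1% of all tested genes. The letters TGTGGT, bound by Runx factors, occurred on either strand in 8 of 10 granzyme windows, that of the lower Gzmm among them, beside 16.9% of the windows of all 27025 genes. At least 1 of TTCCCGCC, TTTCGCGC and TTTGGCGC, forms of the E2F motif, occurred in 13 of 30 replication windows, beside 3.03% of all windows, and in neither Tk1 nor Rrm2. The letters TTTGAA of the cell cycle homology region occurred in 25 of 35 mitosis windows, beside 18.1% of all windows, and not in Birc5. The metal response letters TGCGCNC or TGCACNC occurred in 3 of 3 metallothionein windows, beside 25.6% of all windows, and also in 21 of 30 replication windows. All 4 kinds of motif were chosen with the results known, and a match is a description of the letters, not of binding. Capitals mark TGTGGT in the granzyme windows, E2F letters in Pclaf and metal response letters in Mt1 and Mt2, on either strand.
Gzmb (chr14:56262285-56262584, - strand): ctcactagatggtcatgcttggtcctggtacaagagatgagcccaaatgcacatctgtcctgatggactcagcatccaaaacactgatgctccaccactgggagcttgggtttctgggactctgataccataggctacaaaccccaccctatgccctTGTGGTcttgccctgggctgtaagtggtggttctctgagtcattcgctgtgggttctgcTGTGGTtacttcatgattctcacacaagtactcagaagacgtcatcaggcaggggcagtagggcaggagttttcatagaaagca
Gzmc (chr14:56234608-56234907, - strand): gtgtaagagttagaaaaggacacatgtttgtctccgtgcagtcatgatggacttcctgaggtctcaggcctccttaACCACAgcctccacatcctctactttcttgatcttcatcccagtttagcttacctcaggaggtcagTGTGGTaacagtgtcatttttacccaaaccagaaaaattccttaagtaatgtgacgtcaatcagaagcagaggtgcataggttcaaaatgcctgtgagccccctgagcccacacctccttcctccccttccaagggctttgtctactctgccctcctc
Pclaf (chr9:65890073-65890372, + strand): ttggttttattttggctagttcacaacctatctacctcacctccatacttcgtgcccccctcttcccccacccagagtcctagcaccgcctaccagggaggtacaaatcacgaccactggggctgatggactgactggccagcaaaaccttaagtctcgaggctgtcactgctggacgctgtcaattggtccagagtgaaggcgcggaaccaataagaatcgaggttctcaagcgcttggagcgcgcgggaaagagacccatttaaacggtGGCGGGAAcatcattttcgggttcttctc
Mt1 (chr8:94178839-94179138, + strand): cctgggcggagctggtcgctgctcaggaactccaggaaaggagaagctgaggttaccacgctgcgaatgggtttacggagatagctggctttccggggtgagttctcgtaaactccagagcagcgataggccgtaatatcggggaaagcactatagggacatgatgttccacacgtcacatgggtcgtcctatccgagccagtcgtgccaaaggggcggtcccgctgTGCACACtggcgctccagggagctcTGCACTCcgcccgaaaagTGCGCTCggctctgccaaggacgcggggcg
Mt2 (chr8:94172368-94172667, + strand): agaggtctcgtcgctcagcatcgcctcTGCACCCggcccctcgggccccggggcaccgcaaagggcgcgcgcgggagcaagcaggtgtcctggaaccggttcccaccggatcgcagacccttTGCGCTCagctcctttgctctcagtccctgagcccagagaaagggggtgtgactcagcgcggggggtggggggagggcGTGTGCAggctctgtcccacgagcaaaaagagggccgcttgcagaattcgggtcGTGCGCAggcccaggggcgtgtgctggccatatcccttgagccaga

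Markers of other cell types were also read in the kept cells, and their direction differed between lists. Of 12 melanocyte genes read (9 with at least 100 UMIs) 8 were higher and 0 lower, beside 8.67% and 36.1% of all tested genes. The 14 genes of the list summed to 26.8 and 22.7 CPM in spleen and 366 and 269 CPM in tumor, with Dct the most abundant. Of 15 macrophage and monocyte genes (8 with at least 100 UMIs) 3 were higher and 1 lower, beside 8.67% and 36.1% of all tested genes. The list summed to 1129 and 1460.0 CPM in spleen and 1199 and 1967 CPM in tumor. Its most abundant gene was Ly6c2, which CD8 T cells also express. Lyz2, a defining marker, had 0 and 6 UMIs in spleen and 31 and 100 UMIs in tumor. The cell rule put upper limits on Lyz2, C1qa, C1qb and Csf1r, and on Pmel, Mlana, Tyrp1 and Dct. Their levels in the kept cells are therefore set in part by the selection. Of 8 dendritic cell genes (5 with at least 100 UMIs) 4 were higher and 0 lower, beside 8.67% and 36.1% of all tested genes. All 4 belong to the MHC class II pathway. The list summed to 345 and 385 CPM in spleen and 674 and 429 CPM in tumor, with Ccr7 the most abundant and Clec9a at 0 in tumor. Of 8 B and plasma cell genes (6 with at least 100 UMIs) 3 were lower in tumor, beside 36.1% of all tested genes, with a sum of 217 and 1267 CPM in spleen and 102 and 280.2 CPM in tumor and Igkc the most abundant. The spleen library labelled Pdcd1 cKO held the most of them. Of 7 NK genes (5 with at least 100 UMIs) 1 was higher and 1 lower, beside 8.67% and 36.1% of all tested genes. The NK medians were -0.70 and -2.51, of which the first was 0.02 under median of ratios and 0.11 after centring. The list summed to 89.1 and 179.7 CPM in spleen and 67.2 and 221 CPM in tumor. Its most abundant gene was Gzma, which CD8 T cells also express. Of 6 CD4 and regulatory T cell genes 2, Ctla4 and Il2ra, were higher and 0 lower, beside 8.67% and 36.1% of all tested genes. Of these 6, 3 had at least 100 UMIs. The list summed to 225 and 276 CPM in spleen and 644 and 700.1 CPM in tumor, with Ctla4 the most abundant. Their part in the results was not tested.

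Of 8 stromal and endothelial genes 1, Cdh5, was higher and 1, Pecam1, was lower, beside 8.67% and 36.1% of all tested genes. Of these 8, 6 had at least 100 UMIs. The list summed to 79.7 and 80.9 CPM in spleen and 558 and 139 CPM in tumor, with Cdh5 the most abundant. Col1a2 had 1 and 19 UMIs in spleen and 612 and 3 UMIs in tumor and Col3a1 1 and 23 UMIs in spleen and 300 and 0 UMIs in tumor, so that these collagen UMIs lay almost wholly in the tumor library labelled Pdcd1fl/fl. Of the 3 gamma delta genes, 4 neutrophil progenitor genes and 6 erythroid and platelet genes, 1, 0 and 2 had the 100 UMIs needed to be counted as higher or lower. Their medians were -1.16 and -4.36, -0.70 and -2.92, and 1.07 and -3.58. The first neutrophil median was 0.02 under median of ratios. The gamma delta genes summed to 14 and 209 UMIs in spleen and 25 and 88 UMIs in tumor, the neutrophil genes to 3 and 146 UMIs in spleen and 6 and 32 UMIs in tumor, and the erythroid and platelet genes to 3 and 316 UMIs in spleen and 33 and 16 UMIs in tumor. Their most abundant genes were Trgc2, Ltf and Car2, and Il17a, 8 of the 11 neutrophil genes (among them Mpo and Elane), Hbb-bt and Alas2 were at 0 in tumor. The part of these genes in the results was not tested.

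Tumor cells differed among themselves in Ccr7. A split at 10 Ccr7 UMIs, chosen after seeing the data, set apart 44 of the 278 cells labelled Pdcd1fl/fl, which held 879 of the 1329 Ccr7 UMIs, and 8 of the 459 labelled Pdcd1 cKO. The 44 cells had a median of 13650.0 UMIs, against 10749.5 in the other cells of that library, and the 8 cells 16220.5 against 9107. Gzmb was lower in the cells with Ccr7 under both labels, with log2 ratios of -2.64 (-2.94 to -2.34) and -1.43 (-1.76 to -1.12). Xcl1 was higher in them under both labels, at 1.95 (1.84 to 2.07) and 2.51 (2.18 to 2.82). Cd74, the chaperone of MHC class II, stood at 2.96 (2.72 to 3.19) and -1.34 (-2.35 to -0.50), but 1 cell held 178 of its 641 UMIs in the first tumor library and 1 cell 232 of 1048 in the second, so these ratios rest on few cells. H2-Aa, an MHC class II chain, was higher under the Pdcd1fl/fl label at 4.30 (3.72 to 4.91), where 10 of the 44 cells held its 132 UMIs. Under the other label a difference was not detectable at this depth, at -1.74 (-4.79 to 0.13). In the first tumor library 1 cell held 58 of 163 H2-Aa UMIs and in the second 1 cell held 67 of 250, so these ratios too rest on few cells. Tcf7 stood at 0.39 (-0.55 to 1.23), not detectable at this depth, and at 2.37 (0.85 to 3.61) on 6 UMIs held by 2 of the 8 cells.

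The ratios rest on 1 library per tissue and label, and the tumor libraries differed from both other tissues in intron-dependent counts and in Malat1. Under median of ratios the count of higher genes went from 765 to 1701 and that of lower genes from 3188 to 1912.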

How the data were processed

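PIPseq v3 libraries of 6 samples were used as deposited: reads were aligned to GRCm39 with the kit maker's pipeline by the authors, who deduplicated by UMI and deposited raw UMI counts per gene and cell barcode, with no normalization; the annotation release and cell-calling setting are not stated. Counts were summed over the kept cells of each library, and log2 ratios of CPM were taken between tissues within each label. Where 1 side had 0 UMIs a floor of 3 counts was used, and 0.5 counts were added for ranking only. Intervals are exact conditional binomial for ratios and Clopper-Pearson for shares, at 95%. No test was made. The members and lists were chosen with earlier results of these data known. The text names Pdcd1; the 20 genes of largest change per direction by the smaller of both ratios, past 2-fold in both, without genes of higher CPM in the left-out barcodes; the first 5 left out; the extremes of each list and members whose role the text needs; and genes the study names for its tumors. Some genes that this rule names are not reported here. The metallothionein promoters, Col1a2, Col3a1, Malat1 and the genes of the Ccr7 split were chosen after their values were seen. For shares, each cell was thinned to 1000 UMIs. Of 32227 gene identifiers 31681 matched GENCODE vM39, which gave positions, intron lengths and shared sequence (at least 10% of 31-base words in the last 500 bases of the canonical transcript, or an exon overlap on the same strand). Centring by intron length used the tested genes of each decile and was applied to every gene with a position, list members with at least 20 UMIs included; that extension was made after list values had been seen, and the values without it are given too. Alternatives covered scaling, UMI minimum, fold, cell limits, subtraction of left-out profiles, thinning, cells rich in replication and mitosis RNA and single labels, and, added after seeing the data, intron length and shared sequence. Ratio code was checked on simulated counts. Python 3.11.15, numpy 2.4.6, scipy 1.17.1, numba 0.67.0 and matplotlib 3.10.9 were used.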

Additional observations from a re-analysis of the deposited data

Results flagged for a closer look

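Under the Pdcd1fl/fl labels 18 genes were at least 2-fold higher in tumor while at least 2-fold lower under the Pdcd1 cKO labels, and 19 genes went the other way; these differences were not tested. Bhlhe40 had log2 ratios of 1.41 and -1.47, Ccl3 of 3.79 and -1.09, and Ifng of 3.02 and -1.08. In all 3 the spleen library labelled Pdcd1fl/fl was the lowest of the 4 and the spleen library labelled Pdcd1 cKO the highest. Tafa2 had ratios of -5.48 and 1.33, with 8151 UMIs in the spleen library labelled Pdcd1fl/fl and 19 in the other spleen library. Each difference between the labels rests on 1 library per group and was not tested.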

How the results depend on the processing

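The count of 765 higher genes moved to 1701 under median of ratios, 413 with at least 500 UMIs, 285 at 4-fold, 330 with cells thinned, 277 without cells rich in replication and mitosis RNA (at least 0.25% of UMIs), 1180 for the Pdcd1fl/fl labels alone and 1529 after centring by intron length, an alternative chosen after seeing the data. The count of 3188 lower genes moved to 1912, 1199, 1528 and 1646 under the first 4 of these and to 1659 after centring. Among lists of at least 5 genes, cell type markers left out, those with both medians at or above 2-fold, 3 in all, became 7 under median of ratios, 0 at 4-fold, 1 without such cells and 5 after centring, or 6 with centring before it was extended to list members with fewer than 100 UMIs. Those with both at or below, 3 in all, became 6 with at least 500 UMIs, 5 without such cells, 2 under median of ratios and 2 at 4-fold. The 3 metallothionein genes, too few to enter this count, had both medians past 4-fold, at 5.69 and 5.88. Of values past 2-fold in the same direction under both labels, 8 changed sign. With cells thinned, Jchain read 1.22 (on a floor), B and plasma cell markers 0.21 and gamma delta markers 0.93, all under the Pdcd1fl/fl label. Without cells rich in replication and mitosis RNA, gamma delta markers read 0.66 and mitosis genes -0.01 under the Pdcd1fl/fl label, and Tubb4b, a mitosis gene, -0.45 under the Pdcd1 cKO label. The mitosis values follow from the step, which leaves out cells by these genes. Before centring was extended, 1 gamma delta gene entered and its values read 0.62 and 0.15. Of medians past 2-fold in opposite directions, stromal and endothelial markers under the Pdcd1 cKO label went from negative to 1.65 with cells thinned and 0.22 without replication-rich cells, and erythroid and platelet markers under the Pdcd1fl/fl label from 1.07 to -0.32 without the CD8 rule. Over all alternatives 78 of 1206 list medians changed sign, 13 of them with centring before its extension, 12 without genes that share transcript sequence (added after seeing the data), 10 under median of ratios, 10 with cells thinned and 8 with at least 500 UMIs. Both medians of a list did so in 11 cases: interferon-stimulated genes, killer lectin receptors and NK markers with at least 500 UMIs; Bcl2 family genes and NK markers with cells thinned; gamma delta and NK markers with centring before its extension; and glycolysis genes, killer lectin receptors, NK markers and T cell markers without genes that share transcript sequence. NK markers then read 0.84 and 1.07 with at least 500 UMIs, 0.83 and 0.33 with cells thinned, 0.84 and 1.44 with that centring and 0.84 and 1.07 without genes that share sequence. The cause was not tested. The ratios pair tumor with spleen by label, though Pdcd1 was not lower in the spleen library labelled Pdcd1 cKO. With every tumor library set against every spleen library, 664 genes were higher and 2948 lower.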
